A study of Caenorhabditis elegans with 6 samples.

Results

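The 40 genes described here were chosen by their counts in these libraries: they are the genes, known only by a sequence name such as *C17H12.8*, whose 3 libraries of CGP37157-treated worms lay furthest below the 3 control libraries. The score was the lowest control log2(CPM + 0.5) minus the highest CGP37157 value, where CPM is the counts-per-million value by library total, and the 40 highest scores were kept. Of 46904 gene identifiers in the count table, 44017 had a symbol and 17191 had a sequence name only, 9547 of these with at least 1 count. Wild-type *C. elegans* of the N2 strain were placed at the young adult stage on plates with 50 µM CGP37157 or on control plates, and their RNA was taken at day 5 (3 libraries of whole worms per group). Both groups shared strain, culture and RNA preparation. CGP37157 inhibits the mitochondrial Na+/Ca2+ exchanger, and the libraries were made to see how it changes expression across the genome.

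A worm gene is first named after the genomic clone on which it was predicted, with a serial number, and receives a class name once a family, phenotype or function has been described. Sequence-named genes are therefore mostly genes with little characterisation. Some nevertheless belong to recognisable groups, such as secreted intestinal proteins of the innate immune response, which in *C. elegans* depends in part on the p38 kinase PMK-1, or enzymes that oxidise, reduce or hydrolyse small molecules and lipids. Of the 40 genes, 36 are in the study's supplementary gene lists and 12 carried functional terms there. The paper describes these lists as limited to differentially expressed genes, at p under 0.05 in the same comparison, so being listed is no separate evidence. The 4 genes not listed were not looked up elsewhere, so the lack of a term can mean only that a gene was not listed. The other 28 are described by their values, position and protein length, without a role.

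The libraries held 23821727 to 24551795 counts on genes in CGP37157 worms and 21122852 to 21245713 in control worms. The scaling factor of the trimmed mean of M-values (TMM), which corrects for differences in library composition, was 1.12 in CGP37157 replicate 2 and 0.815 in control replicate 2, the lowest of the 6. The intestine list (8 markers) summed to 960 to 1018 CPM in CGP37157 libraries and 619 to 936 CPM in control libraries, the 4 body wall muscle markers to 1785 to 2822 CPM in CGP37157 libraries and 2118 to 3607 CPM in control libraries, and none of these markers was at 0 in all libraries. In RNA of whole worms, fewer cells of a type and less RNA per cell cannot be told apart.

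All CGP37157 libraries lay below all control libraries for the 40 genes, as the rule requires. The same held for 2.96% of the 12385 genes that entered the test. After scaling by TMM or by DESeq2 size factors, the groups still did not overlap for any of the 40. The genes were chosen for a wide gap in the same counts, and the share over all genes under these scalings is not given. Nothing is therefore read from this. Together the 40 genes took 0.0354%, 0.0355% and 0.032% of the counts in the CGP37157 libraries, against 0.0806%, 0.0678% and 0.0773% in the control libraries. This sum was mostly a few genes: *C17H12.8* held 18.6%, *Y58A7A.5* 18.2% and *F28H7.3* 16.6% of the 40 genes' control counts. Scores ran between 0.28 and 2.09 on the log2 scale (median 0.46), with 4 genes over 1 and 22 under 0.5.

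Of the 40 genes, 32 reached 1 CPM in at least 3 libraries and were tested, 2 of them with no CGP37157 library at that level and 6 with 1 or 2 such libraries. The median of their log2 fold changes, CGP37157 over control, was -1.22 (range -4.33 to -0.66), beside a median of -0.014 over all tested genes. In edgeR's quasi-likelihood test, 9 of the 40 were lower at an adjusted p under 0.05, beside 0.234% of all tested genes. Since the rule used the same contrast, these are descriptions and nothing is read from the count. The 9 were *F20E11.17*, *C30G12.2*, *Y105C5A.13*, *T20D4.7*, *C17H12.8*, *R11D1.3*, *T05E12.6*, *F56D6.8* and *Y58A7A.5*, and they were all the sequence-named genes among the 29 genes lower. Only *F20E11.17*, *T20D4.7* and *C17H12.8* kept their call whichever of the 6 libraries was left out. The count was 3 without CGP37157 replicate 1, 5 without CGP37157 replicate 3, and 17 in DESeq2. Over all tested genes 12, 17 and 60 were lower in these fits.

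**Figure D1:**
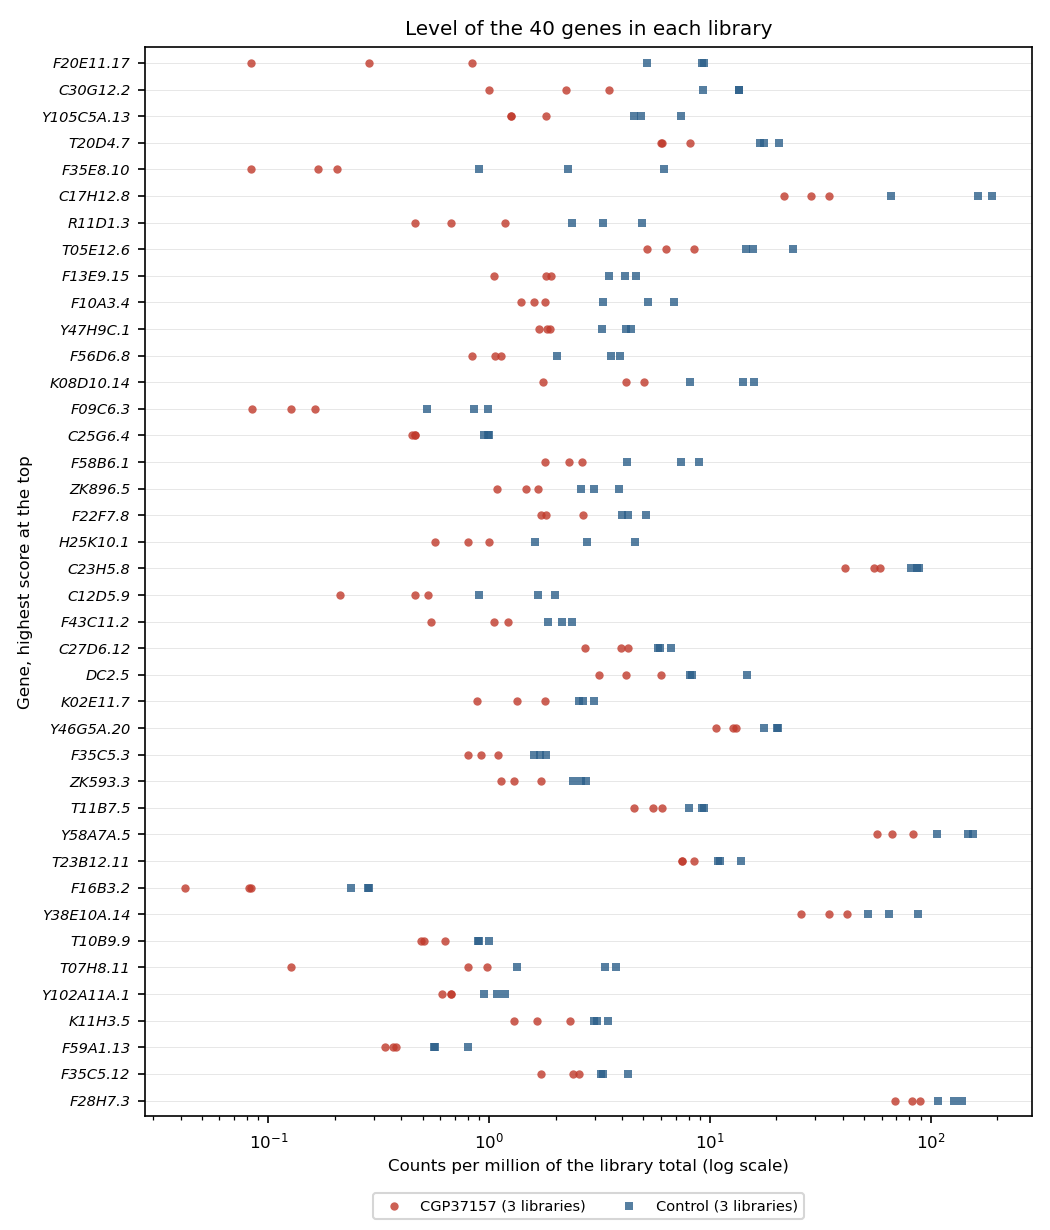
Level of each of the 40 genes in each library, in CPM by library total on a log scale, with genes ordered by score. Each circle is a CGP37157 library and each square a control library (3 each); the circles lie left of the squares in every row because the rule chose the genes so, and the gap narrows down the page.

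Of the genes with an immune annotation, *C17H12.8* (WBGene00015933; chromosome IV, 6818703 to 6820575 in WBcel235, 348 residues) had the highest level per length of all 40 genes in control worms. Its terms are innate immune response, defence against Gram-negative bacteria and membrane raft, and it is often used as a readout of PMK-1 signalling. It had 21.6, 34.7 and 28.7 CPM in CGP37157 libraries, against 164, 66.3 and 189 CPM in control libraries. Control replicate 2 was far below the other control libraries. It lay above every CGP37157 library, as the rule requires. Per length this was 29.7 ± 8.01 TPM (a level scaled by transcript length and by library) in CGP37157 worms and 146 ± 72.3 TPM in control worms (SD, n = 3 each), with a log2 fold change of -2.30 (SE 0.30).

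*F10A3.4* carries the same 3 terms and codes for 569 residues, the longest protein of the 40. It had 1.39, 1.79 and 1.59 CPM in CGP37157 libraries, against 5.22, 6.9 and 3.27 CPM in control libraries, and a log2 fold change of -1.78 (SE 0.38). *K08D10.14*, annotated with innate immune response, had 4.16, 5.05 and 1.76 CPM in CGP37157 libraries, against 15.9, 14.1 and 8.1 CPM in control libraries. In both genes control replicate 3 was the lowest control library, whereas for *C17H12.8* it was the highest. *F35C5.12*, with the term defense response, lay close to the limit of the rule, with 2.56, 2.4 and 1.72 CPM in CGP37157 libraries, against 4.24, 3.21 and 3.27 CPM in control libraries.

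Lists of related genes were examined beside these members; they were drawn up with earlier results of these libraries known. The first list held 10 genes of the p38 pathway (*tir-1*, *nsy-1*, *sek-1*, *pmk-1*, *atf-7*, *vhp-1*) and other regulators of immune or stress responses (*skn-1*, *elt-2*, *hlh-30*, *zip-2*), which are not core members of that pathway. Of these 10, none passed the edgeR test in either direction, none had an unadjusted p under 0.05 and none passed in DESeq2. Their log2 fold changes lay within -0.22 to 0.19, with *pmk-1* itself at -0.01 (SE 0.33). Of 11 effectors other than *C17H12.8*, 3 rose and 0 passed as lower, with 4 lower at an unadjusted p under 0.05 and 2 lower in DESeq2. Over all tested genes 0.234% were lower and 1.16% higher in edgeR at the adjusted threshold. No lower call is thus the usual outcome for so few genes, and the same holds for each list given here. In DESeq2 60 of all tested genes were lower and 200 higher. No share over all tested genes is given at an unadjusted p, so nothing is read from such counts, here or for the lists and neighbours below.

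The 3 effectors that rose were infection response genes. *irg-5* had 3177, 3300 and 2418 CPM in CGP37157 libraries, against 24.7, 19.5 and 24.3 CPM in control libraries, a log2 fold change of 6.98 (SE 0.32, adjusted p = 1.09e-06). *irg-4* rose by 5.84 (SE 0.36, adjusted p = 7.9e-06) and *irg-6* by 4.24 (SE 0.49, adjusted p = 0.000807) on the log2 scale. The effectors with negative values that missed the threshold included *sysm-1*, formerly *T24B8.5* and a reporter of PMK-1 activity, at -1.43 (SE 0.33, adjusted p = 0.0814), and *dod-24* at -1.12 (SE 0.25, adjusted p = 0.0699). The list thus held values of both signs, with a median of 0.38, beside the -2.30 of *C17H12.8*. That gene was chosen as lower in the same counts, so nothing is read from this difference.

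Among enzymes, *C30G12.2* (WBGene00016274; chromosome II, 7290426 to 7291719) and *DC2.5* are annotated as oxidoreductases and belong to the short-chain dehydrogenases, which transfer hydride between a substrate and a nicotinamide cofactor. *C30G12.2* had 2.22, 3.5 and 1.0 CPM in CGP37157 libraries, against 13.5, 13.6 and 9.33 CPM in control libraries. Replicate 3 was the lowest library of both groups, and the log2 fold change was -2.52 (SE 0.40), the second lowest of the 40 in the fit. *DC2.5* had 4.16, 5.99 and 3.14 CPM in CGP37157 libraries, against 14.7, 8.27 and 8.14 CPM in control libraries, with control replicate 1 standing above the other two. Its log2 fold change was -1.26 (SE 0.29).

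Of the 27 tested genes with a *dhs* class name, the named short-chain dehydrogenases, 2 rose and 0 passed as lower in edgeR, with 2 lower at an unadjusted p under 0.05 and 0 lower in DESeq2 (all tested genes: 0.234% lower, 1.16% higher). *dhs-23* had 86.6, 120 and 85.3 CPM in CGP37157 libraries, against 2.02, 1.09 and 1.23 CPM in control libraries, a log2 fold change of 6.03 (SE 0.27, adjusted p = 1.09e-06). *dhs-14* rose by 3.38 (SE 0.23, adjusted p = 1.47e-05). The median of the list was 0.01, and its lowest value was -1.0, above the values of both sequence-named oxidoreductases. Those 2 were chosen as lower in the same counts and the list was not, so nothing is read from this difference.

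*F58B6.1* and *F28H7.3* share the terms lipid metabolic process and hydrolase activity. *F58B6.1* had 2.64, 1.79 and 2.3 CPM in CGP37157 libraries, against 4.19, 8.93 and 7.39 CPM in control libraries, with control replicate 1 nearest to the CGP37157 range. *F28H7.3* was far more abundant, with 89.4, 68.8 and 81.9 CPM in CGP37157 libraries, against 127, 139 and 108 CPM in control libraries. Per length, *F28H7.3* stood at 87.9 ± 8.13 TPM in CGP37157 worms and 136 ± 10.8 TPM in control worms (SD, n = 3 each), the highest CGP37157 level of the 40. Their log2 fold changes were -1.69 (SE 0.40) and -0.70 (SE 0.25).

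Of 22 genes with the class names *lips* or *lipl*, the named lipases, 10 were tested, 2 rose and 0 passed as lower in edgeR, beside 0.234% lower and 1.16% higher over all tested genes. At an unadjusted p under 0.05 there were 1 lower and 4 higher, and in DESeq2 1 lower and 3 higher. *lips-10* rose by 1.55 (SE 0.24, adjusted p = 0.00702). *lipl-2*, a lysosomal lipase gene, rose by 2.20 (SE 0.37, adjusted p = 0.0129). Leaving out CGP37157 replicate 1 ended the call on *lipl-2* (adjusted p = 0.0722), and so did leaving out CGP37157 replicate 2 (adjusted p = 0.0634). Over all alternatives its adjusted p lay between 4.71e-07 and 0.0932.

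*H25K10.1* (WBGene00010411; chromosome IV, 16202374 to 16205464) codes for a purple acid phosphatase, a metal-binding enzyme that removes phosphate groups. It had 0.798, 0.57 and 1.0 CPM in CGP37157 libraries, against 2.78, 1.61 and 4.59 CPM in control libraries. These were 14 to 24 reads per CGP37157 library and 34 to 97 per control library, with control replicate 2 lowest. The log2 fold change was -1.91 (SE 0.42).

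The other annotated members were *Y58A7A.5* and *ZK593.3*, both predicted membrane proteins, and *Y46G5A.20*, annotated with protein binding. *Y58A7A.5* (WBGene00021979; chromosome V, 5085704 to 5086969) had 66.7, 83.5 and 56.9 CPM in CGP37157 libraries, against 156, 107 and 148 CPM in control libraries. CGP37157 replicate 2 and control replicate 2 came closest to each other, and the log2 fold change was -1.03 (SE 0.19). *ZK593.3* had 1.13, 1.71 and 1.3 CPM in CGP37157 libraries, against 2.4, 2.74 and 2.6 CPM in control libraries. *Y46G5A.20* had 13.1, 12.7 and 10.7 CPM in CGP37157 libraries, against 20.1, 17.5 and 20.4 CPM in control libraries. The control libraries of both genes lay close together, and CGP37157 replicate 2 was the treated library nearest to them in *ZK593.3*. The log2 fold changes of *ZK593.3* and *Y46G5A.20* were -0.97 (SE 0.31) and -0.71 (SE 0.21).

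Among the genes without a functional term, *F20E11.17* (WBGene00050906; chromosome V, 17468613 to 17469280, minus strand, 3 exons, 71 residues) had the highest score. It had 20, 7 and 2 reads in CGP37157 libraries, against 199, 194 and 110 reads in control libraries. The CGP37157 libraries differed among themselves by 10 times in CPM, the widest range of the 40 in that group. The highest of them lay below the lowest control library, as the rule requires. The levels were 0.84, 0.285 and 0.0837 CPM in CGP37157 worms, against 9.37, 9.17 and 5.21 CPM in control worms, with a log2 fold change of -4.33 (SE 0.61). Fits without 1 library gave values between -5.50 and -3.85.

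*Y105C5A.13* (chromosome IV, 15641231 to 15643828, 114 residues) had 1.26, 1.26 and 1.8 CPM in CGP37157 libraries, against 4.52, 4.87 and 7.43 CPM in control libraries. *T20D4.7* (chromosome V, 3408902 to 3409528, 141 residues) had 6.09, 8.15 and 5.99 CPM in CGP37157 libraries, against 17.6, 16.9 and 20.5 CPM in control libraries. Replicate 3 was the highest control library in both genes. Their log2 fold changes were -2.0 (SE 0.33) and -1.50 (SE 0.22), and leaving out 1 library moved that of *T20D4.7* within -1.62 to -1.42.

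*F35E8.10* (chromosome V, 15919434 to 15920373) had 4, 5 and 2 reads in CGP37157 libraries, against 131, 48 and 19 reads in control libraries. The control libraries spread over 6.85 times in CPM, the widest range of the 40 in that group, and the gene did not enter the test because only 2 libraries reached 1 CPM. The summed reads were 11 in CGP37157 worms and 198 in control worms. *R11D1.3* had 0.672, 1.18 and 0.461 CPM in CGP37157 libraries, against 4.9, 2.36 and 3.27 CPM in control libraries. *T05E12.6* had 6.3, 8.51 and 5.19 CPM in CGP37157 libraries, against 15.7, 14.6 and 23.7 CPM in control libraries. CGP37157 replicate 2 was the highest treated library and control replicate 2 the lowest control library in both, and their log2 fold changes were -2.20 (SE 0.37) and -1.48 (SE 0.26).

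*F13E9.15*, which has 1 exon, had 1.81, 1.91 and 1.05 CPM in CGP37157 libraries, against 4.61, 4.11 and 3.5 CPM in control libraries. *Y47H9C.1* had 1.68, 1.83 and 1.88 CPM in CGP37157 libraries, against 4.38, 3.26 and 4.17 CPM in control libraries. Their log2 fold changes were -1.41 (SE 0.32) and -1.16 (SE 0.27), and neither passed the threshold in any fit without 1 library. *F56D6.8*, of 66 residues, had 0.84, 1.06 and 1.13 CPM in CGP37157 libraries, against 3.58, 2.03 and 3.93 CPM in control libraries. *C27D6.12*, of 76 residues, had 3.95, 4.24 and 2.72 CPM in CGP37157 libraries, against 6.68, 5.91 and 5.82 CPM in control libraries. The treated libraries of *F56D6.8* were nearly equal and its control replicate 2 was low, whereas in *C27D6.12* the control libraries were nearly equal and CGP37157 replicate 3 was low.

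The remaining 18 genes had no functional term in the study's gene lists. The 11 that were tested, *ZK896.5*, *F22F7.8*, *C23H5.8*, *F43C11.2*, *K02E11.7*, *F35C5.3*, *T11B7.5*, *T23B12.11*, *Y38E10A.14*, *T07H8.11* and *K11H3.5*, had log2 fold changes between -2.22 (*T07H8.11*) and -0.66 (*T23B12.11*). Their levels ran between 0.126 and 58.7 CPM in CGP37157 libraries and between 1.33 and 88.2 CPM in control libraries. The 7 that did not enter the test, *F09C6.3*, *C25G6.4*, *C12D5.9*, *F16B3.2*, *T10B9.9*, *Y102A11A.1* and *F59A1.13*, had 1 to 16 reads per CGP37157 library and 5 to 42 reads per control library. At this depth such genes can pass the rule on few reads: *F16B3.2* did so with 1, 2 and 2 reads in CGP37157 libraries, against 6, 6 and 5 reads in control libraries. In *C25G6.4* the libraries of each group were nearly identical, with 11 reads in all CGP37157 libraries, against 21, 21 and 20 reads in control libraries.

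At the limit of the rule, the genes ranked 39 and 40 were *F35C5.12* (score 0.279) and *F28H7.3* (0.275). Just outside lay *E02H4.7* (0.273; 5.04, 3.14 and 3.1 CPM in CGP37157 libraries, against 8.38, 6.19 and 8.05 CPM in control libraries) and *ZC204.17* (0.269). Older sequence names were looked up only in the study's supplementary gene lists. Another 6 genes with a sequence name there also scored at or above rank 40. They have a class name or no symbol in the name table, and so are not among the 40. They were *nta-1* (formerly *F12E12.11*, score 0.99), *sysm-1* (*T24B8.5*, 0.50), *spp-31* (*Y77E11A.14*, 0.49), *vmo-1* (*Y38H6C.19*, 0.46), *spig-6* (*F57E7.1*, 0.29) and *K08D10.9* (0.29).

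Compared per length, the 40 genes covered a wide range. Their mean levels lay between 0.205 and 87.9 TPM in CGP37157 worms (median 3.14) and between 0.451 and 146 TPM in control worms (median 7.88). Over the 32 that were tested, the medians were 3.77 TPM in CGP37157 worms and 11.5 TPM in control worms, beside 9.43 TPM in CGP37157 worms and 9.2 TPM in control worms for the other sequence-named genes tested. In control worms 5 of the 40 were over 50 TPM and 15 were under 5 TPM.

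Within a group, the libraries were not equally distant. The highest CGP37157 library exceeded the lowest by a median of 1.54 times over the 40 genes, and the highest control library exceeded the lowest by 1.38 times. By library totals, CGP37157 replicate 2 was the highest treated library for 22 of the 40 genes (55%), beside 55.1% of the other sequence-named genes tested. Control replicate 2 was the lowest control library for 15 of the 40 (37.5%), beside 61.4% of the others. With TMM scaling control replicate 2 became the highest control library for 28 of the 40 (70%), beside 39.8% of the others. The rule scored the lowest control value by library total, so it disfavoured genes that were low in control replicate 2. These differences between the 40 and the others are partly set by the choice, and nothing is read from them. The order of the control libraries thus depended on the scaling. The groups stayed apart under each scaling, but the genes were chosen for that separation.

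The rule fixes that the 40 genes are lower in every CGP37157 library than in every control library. To read the same measure in libraries that the choice did not use, the rule was applied to 4 libraries, leaving out the CGP37157 and control libraries of 1 replicate number, and log2(CPM + 0.5) was compared in the pair left out. In pair 1 the median of the 40 genes so chosen was -0.70 (CGP37157 minus control) and 37 of the 40 were lower in CGP37157. The others were all remaining sequence-named genes whose lowest control level was at or above the lowest among the chosen genes, and were not matched in level. Their median was -0.22, with 68.8% lower. In pair 3 the median was -0.73 with 38 of the 40 lower, beside -0.11 and 64.2% for the others.

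Pair 2 differed. There the median of the chosen genes was -0.23 and 25 of the 40 were lower in CGP37157, beside a median of 0.35 and 24.5% lower for the others. After TMM scaling the medians of the chosen genes were -0.89, -0.62 and -0.95 in pairs 1, 2 and 3, beside -0.01, -0.05 and -0.03 for the others. Of the 40 chosen each time, 26, 18 and 24 were among the 40 genes of all libraries, so the list itself depended on which libraries were used. The lowest value in pair 2 was -3.62 and the highest was 2.70, a gene higher in CGP37157 although the other 2 pairs had chosen it as lower.

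**Figure D2:**
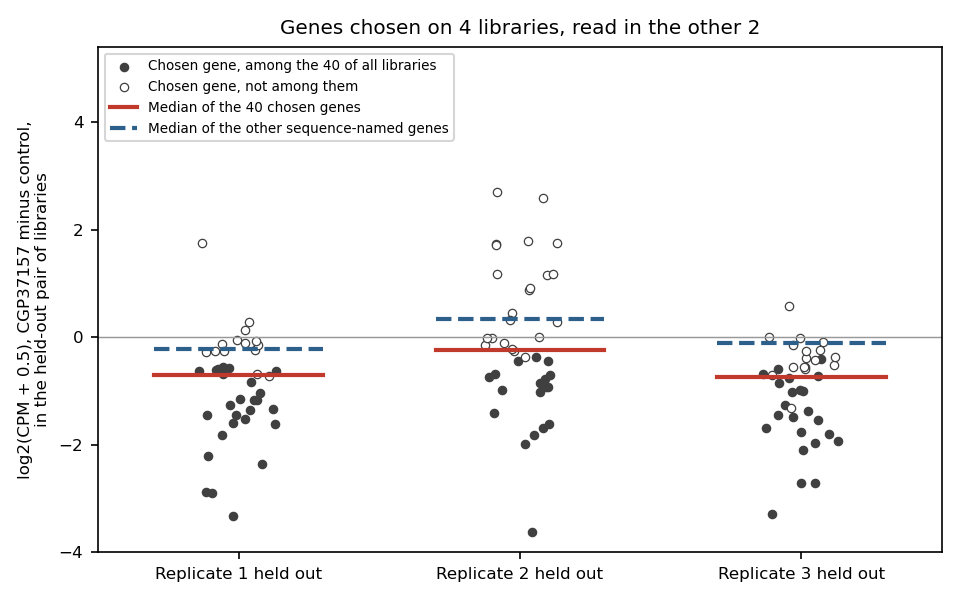
Difference of log2(CPM + 0.5), CGP37157 minus control, in the pair of libraries left out, for the 40 genes chosen on the other 4 libraries. Filled points are genes also among the 40 of all libraries, which are below 0 by choice; the solid line is the median of the chosen genes (-0.70, -0.23 and -0.73) and the dashed line that of the other sequence-named genes (-0.22, 0.35 and -0.11).

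The genes next to the 40 on the chromosome were read in the same fit. The nearest tested gene on each side gave 80 neighbours, none of them among the 40, at a median distance of 4662 bases and on the same strand in 40 of the 80 cases. The log2 fold changes of these neighbours ranged over -1.27 to 5.27 (median -0.08), and 57.5% had a negative value, beside 52.6% of all tested genes. In edgeR 0 of the 80 passed as lower and 3 rose (3.75%, beside 1.16% of all tested genes). At an unadjusted p under 0.05, 6 were lower and 7 higher, and in DESeq2 1 was lower and 4 were higher. The number lower was 2 without control replicate 2 and 1 without control replicate 3, where 34 and 23 of all tested genes were lower. The rule also scored the 34 neighbours that have a sequence name, and all sequence-named genes that passed as lower are among the 40, so for these neighbours the lack of lower calls is not independent of the rule.

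The other 46 neighbours could not be chosen by the rule. Of these, 0 passed as lower and 1, *cdr-1*, rose in edgeR, beside 0.259% lower and 1.16% higher among all 7729 tested genes without a sequence name, so that few calls could be reached among 46 genes. At an unadjusted p under 0.05, 4 were lower and 5 higher, and in DESeq2 1 was lower and 2 were higher. Their median log2 fold change was -0.14. Without control replicate 3, 1 of the 46 passed as lower, and without control replicate 2 it was 0.

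The 3 neighbours that rose stood beside *H25K10.1*, *F35E8.10* and *C27D6.12*. *H25K10.4*, 20582 bases from *H25K10.1* on the same strand, had 35.9, 56.9 and 55.1 CPM in CGP37157 libraries, against 0.894, 1.32 and 1.42 CPM in control libraries, a log2 fold change of 5.27 (SE 0.33, adjusted p = 8.47e-06). *cdr-1*, a cadmium-responsive gene that starts 935 bases from *F35E8.10* on the other strand, had 32.1, 44.8 and 27.1 CPM in CGP37157 libraries, against 2.45, 2.36 and 2.41 CPM in control libraries. It rose by 3.78 on the log2 scale (SE 0.26, adjusted p = 1.48e-05), so that these adjacent genes had values of opposite sign. *F58A6.1*, 33277 bases from *C27D6.12* on the other strand, had 12.0, 12.4 and 11.4 CPM in CGP37157 libraries, against 4.75, 3.36 and 4.5 CPM in control libraries (log2 fold change 1.47, SE 0.22, adjusted p = 0.00585).

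*F56D6.8* was picked out after its values were seen: both genes beside it, *F56D6.9* at 731 bases and *dct-8* at 639 bases, had negative log2 fold changes that missed the threshold. *F56D6.9* stood at -1.13 (SE 0.30, adjusted p = 0.188) and *dct-8* at -1.27 (SE 0.38, adjusted p = 0.305). In all 3 genes control replicate 2 was the lowest control library. For *dct-8* it fell within the CGP37157 range, so that its groups overlapped. Negative values on both sides were not particular to *F56D6.8*. They were also found beside *T20D4.7* (-1.13 and -0.45) and *Y38E10A.14* (-0.83 and -0.69), among others. Another negative neighbour, *dgat-2* beside *F59A1.13*, lay nearer the threshold (-1.13, SE 0.26, edgeR adjusted p = 0.0814). Of the 80 neighbours, 46 had values below 0 and 34 above.

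**Figure D3:**
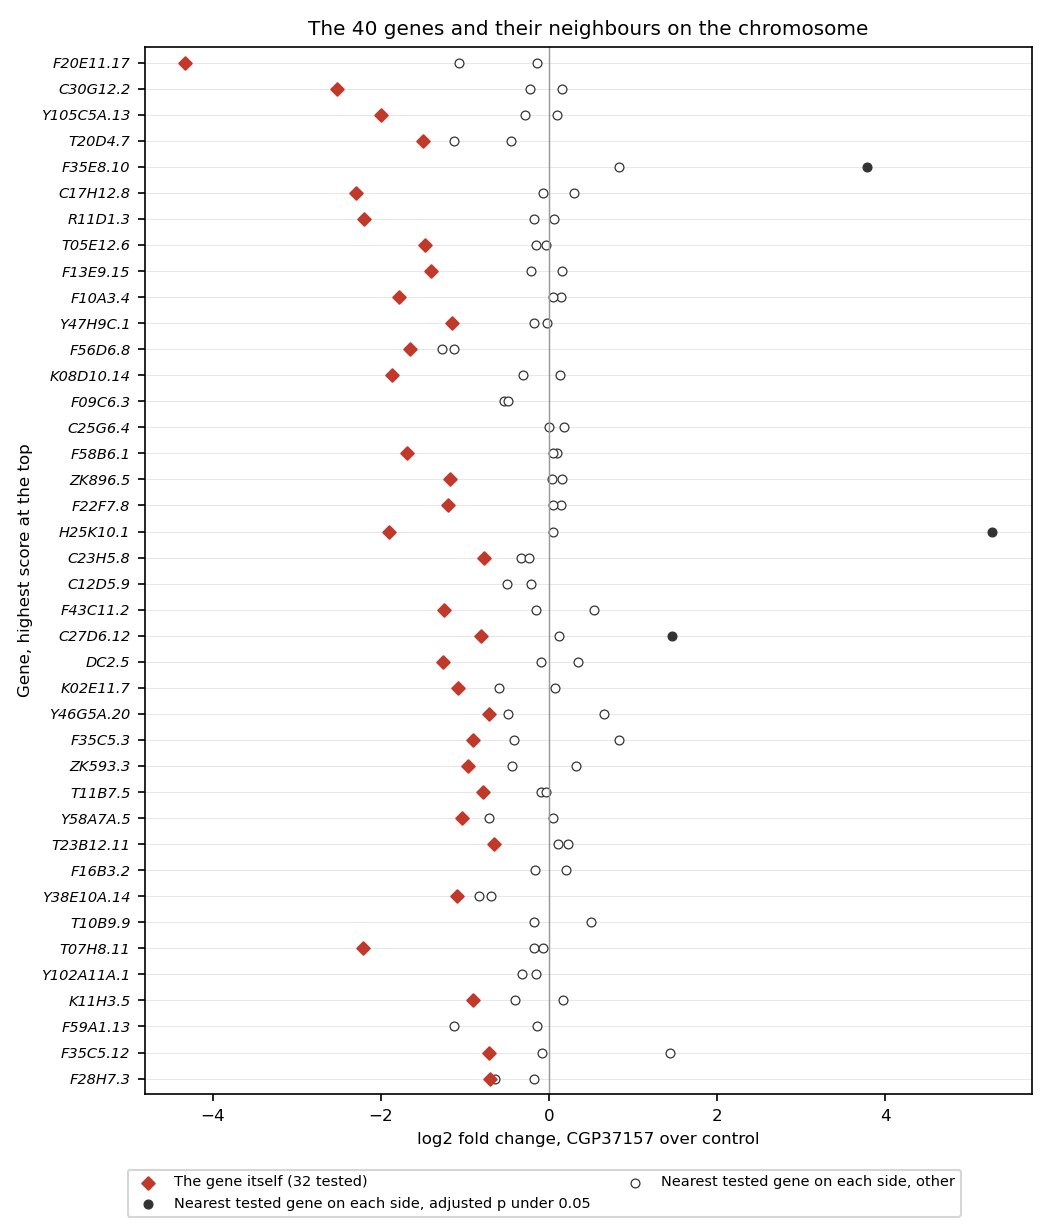
Log2 fold change, CGP37157 over control, of each of the 40 genes (diamonds, 32 tested) and of the nearest tested gene on each side (circles, 80 in all), with genes ordered by score. Filled circles passed an adjusted p of 0.05; they are *cdr-1*, *H25K10.4* and *F58A6.1*, and most other circles lie near 0.

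Reads of overlapping genes cannot be told apart if strand was not used in counting, which the sources used here do not state, although the library kit keeps strand. Of the 40 genes, 14 overlapped another annotated gene, 7 of them a protein-coding one, always on the other strand. In 3 of these the partner had over 100 counts in every library. *T11B7.5* lies within *alp-1* over 768 bases, and *alp-1* had 1289, 1704 and 1075 counts in CGP37157 libraries, against 1493, 1044 and 1025 counts in control libraries. *C25G6.4* shares 86 bases with *tsp-9*, and *Y46G5A.20* shares 47 bases with *acl-7*, which had 836, 661 and 601 counts in CGP37157 libraries, against 491, 312 and 354 counts in control libraries. None of these 3 partners was lower in all CGP37157 libraries than in all control libraries.

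All 40 genes are annotated as protein-coding. The shares below are not like for like: 8 of the 40 were not tested, whereas the others were all tested. Of the untested genes, *F35E8.10*, *F09C6.3*, *C12D5.9*, *F16B3.2* and *F59A1.13* lie on chromosome V. The genes of the 40 on chromosome X, *C25G6.4* and *Y102A11A.1*, were also untested. Chromosome V held 17 of them (42.5%), beside 19.6% of the other sequence-named protein-coding genes tested, and chromosome IV held 10 (25%), beside 16.6%. Chromosome I held 1 (2.5%), beside 15.6%, while chromosomes III and X held 2 each. With each chromosome divided into 3 equal parts, the outer parts held 29 of the 40 (72.5%), beside 60.8% of the others. The proteins were short, with a median of 188 residues, beside 301 for the others, and 16 of the 40 (40%) were under 150 residues, beside 18.1%. They had a median of 3 exons, beside 5 for the others.

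Few of the 40 genes lay close together. *F35C5.3* and *F35C5.12* are 19.7 kb apart on chromosome II, with *Y46G5A.20* 76.8 kb from *F35C5.3* and 98.3 kb from *F35C5.12*, and *F13E9.15* and *ZK593.3* are 25.8 kb apart on chromosome IV. *Y38E10A.14* lies 186 kb from *Y46G5A.20*, and no other pair of the 40 came as close. *F35C5.3* had 0.798, 1.1 and 0.921 CPM in CGP37157 libraries, against 1.6, 1.7 and 1.8 CPM in control libraries. Its control libraries lay closer together than its CGP37157 libraries.

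**Figure D4:**
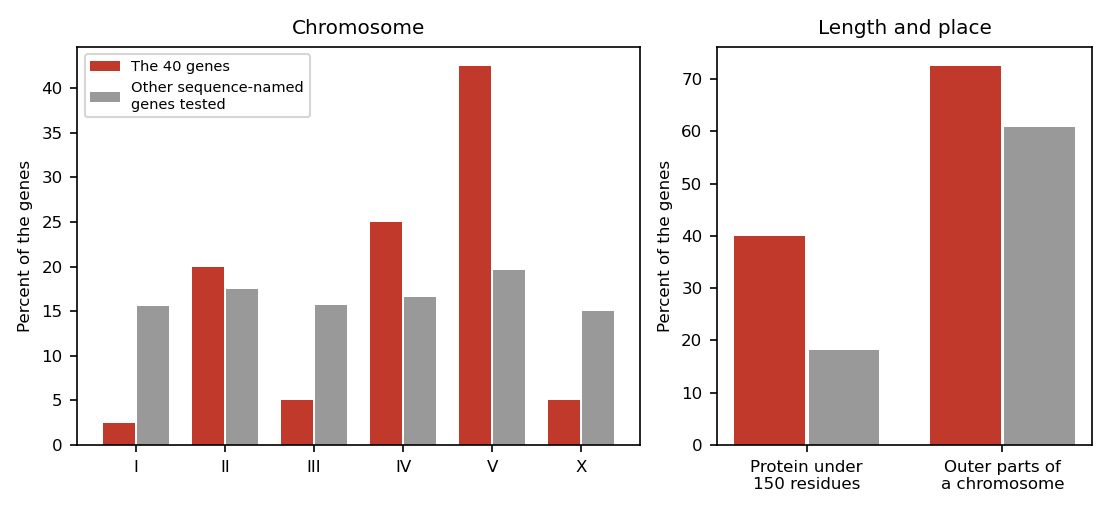
Share of the 40 genes and of the other sequence-named protein-coding genes tested, in percent, by chromosome (left), and with a protein under 150 residues or in the outer parts of a chromosome (right). Chromosome V holds 42.5% of the 40 genes, beside 19.6% of the others, and short proteins make up 40%, beside 18.1%. The 40 include 8 genes that did not enter the edgeR test, unlike the others, and no test of these shares was made.

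Tissue markers were read beside the 40 genes. The 8 intestine markers, including *elt-2*, *ges-1* and *vha-6*, had log2 fold changes between 0.05 and 0.88 (median 0.41). The 4 body wall muscle markers had a median of -0.38, the 3 pharynx markers -0.53, the 4 neuron markers -0.10, the 4 germline markers -0.03, the 3 tested sperm markers -0.12 and the 2 coelomocyte markers -0.27, and the 1 hypodermis marker tested stood at -0.10. No marker passed in edgeR or DESeq2, and at an unadjusted p under 0.05 there were 2 higher, both in the intestine list, and 0 lower. The part of tissue makeup in the values of the 40 genes was not tested.

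**Figure D5:**
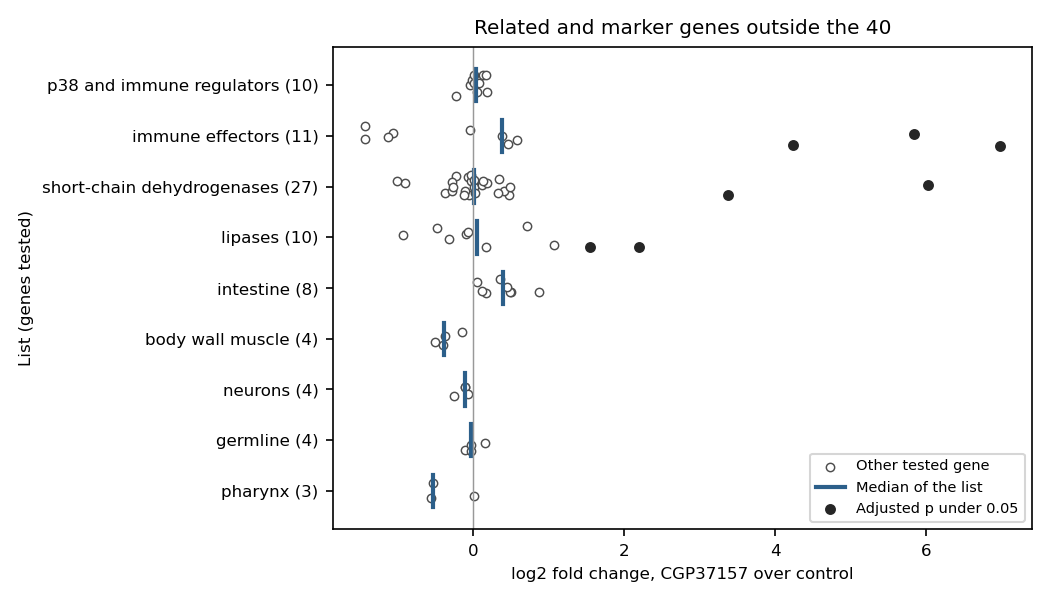
Log2 fold change, CGP37157 over control, of the tested genes outside the 40 in each list shown, with the median of each as a vertical line. The hypodermis, sperm and coelomocyte markers are not drawn. Filled points passed an adjusted p of 0.05, which are 3 immune effectors, 2 short-chain dehydrogenases and 2 lipases, all to the right of 0.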

How the data were processed

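RNA of whole worms was sequenced as stranded mRNA libraries (6 libraries, 3 per group), with 21122852 to 24551795 counts each. The deposited table holds unnormalised read counts for each gene, and the submitters' processing notes name HISAT2 and featureCounts; their versions, the genome build and the annotation are not given in the sources used here. The authors' scaled values, fold changes and p-values were not used. Symbols came from a WormBase name table, and positions, exons and protein lengths from the Ensembl annotation of WBcel235, release 115.

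Members and lists were chosen with earlier results of these data known. CPM used library totals and a pseudocount of 0.5. TPM was computed from the counts and the exon length. The 12385 genes at 1 CPM or more in 3 or more libraries were tested with edgeR 4.0.16 (quasi-likelihood, TMM, condition only), with Benjamini-Hochberg adjustment and a threshold of 0.05. The fit was tested on simulated counts with the same dispersion for every gene. No result here rests on that run. DESeq2 1.42.0 and other settings were alternatives. Values in every library are given for the 12 highest scores, for members with a functional term and for members beside a neighbour that passed. Other genes are named from the lists, as neighbours that passed or were picked out, as overlapping genes, or at the limit of the rule. The labels do not say whether replicates came from separate cultures, so p-values measure only the spread between these samples.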

Additional observations from a re-analysis of the deposited data

How the results depend on the processing

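The 32 tested genes of the 40 kept the sign of their log2 fold change in every fit run. They were chosen for that sign in the same counts, so nothing is read from this. Counts of calls moved. Of the 40, 9 were lower in the fit reported, 17 in DESeq2, 19 in the likelihood ratio test, 20 with no low-count filter, 4 with library sizes only, and 3 to 10 when 1 library was left out. Over all genes, 29 were lower, against 60 in DESeq2, 66 in the likelihood ratio test, 66 with no low-count filter, 17 with library sizes only, and 12 to 34 without 1 library. Neighbours lower numbered 0 as reported, 1 in DESeq2, 3 in the likelihood ratio test, 1 with no low-count filter, 1 with the nearest 2 genes on each side, and 0 to 2 without 1 library. Neighbours higher numbered 3, against 1 with no low-count filter, where the nearest tested genes differ. Of the 40 genes, 30 stayed among the 40 highest scores after TMM, 29 with size factors, 34 with a pseudocount of 2, 21 with a pseudocount of 0.1, and 22 to 33 without 1 library (24 without CGP37157 replicate 2, 22 without control replicate 2, 24 without control replicate 3). The median of the 3 medians of the held-out pairs was -0.70, -0.89 after TMM and -0.55 with a pseudocount of 2. Pair 2 had the value nearest 0 in each setting. With a pseudocount of 2 its median was -0.02 and 22 of the 40 were lower, beside 0.32 and 23.5% lower for the others. Apart from the settings that test other genes or leave out samples, the cause was not tested. Same-numbered libraries carry the same code in their titles, without an explanation. Their deviations from the group means correlated at 0.0742, -0.536 and 0.403 for numbers 1, 2 and 3. The reported fit therefore did not treat them as pairs. The held-out comparison did leave out and compare libraries of the same number. With the replicate block 7 of the 40 were lower, 5 of them among the 9 reported; *R11D1.3*, *T05E12.6*, *F56D6.8* and *Y58A7A.5* were not called and *K08D10.14* and *T07H8.11* were. In that fit 20 genes were lower in all and 117 higher, and neighbours were 0 lower and 3 higher. The planned comparison of protein relatives and the protein and promoter features were not run, since sequences were not used here. Genes with few reads limit the list: 9 of the 40 had a control library under 30 counts.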
